A study of Homo sapiens with 4 samples.

Results

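A culture that receives only solvent is the baseline of a drug experiment, and the values described here are the shift of that baseline over a day. WM35, a human radial growth phase melanoma line, was given DMSO at 0.2% of the medium and collected after 6 h and after 24 h. The comparison takes 2 of the 4 arrays of the series, those titled for DMSO at 24 h and at 6 h. The other pair held WM35 cells given C646, an inhibitor of the acetyltransferases p300 and CBP, at 20 µM for the same times. All cells grew in DMEM with 10% serum under 5% CO2 and were trypsinised before RNA extraction. Total RNA, 100 ng for each array, was read on the Affymetrix Human Exon 1.0 ST array. The difference is the log2 value at 24 h minus that at 6 h. It was taken over 16579 of 27631 probe sets, those with a 4-array average no lower than the 40th percentile. That level was 3.96. The probe set just inside read 3.93 and 4.00 in vehicle at 6 h and 24 h, and the one just outside read 3.72 and 4.29. With 1 array on each side there is no replicate check and no test, so each difference compares an array with an array. WM35 is a single line, and further cultures were not analysed here.

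DMSO is the solvent for many small molecules and serves as their vehicle control. Cells kept in the same dish for a day divide, become denser, and use up glucose, amino acids and serum growth factors. Known readouts of these conditions are the genes of the dividing cell, the immediate early genes that respond within minutes to growth factors, the arrestin genes ARRDC3, ARRDC4 and TXNIP that follow nutrient supply, targets of the density-sensing factors YAP and TEAD, and the genes of the circadian clock.

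The vehicle arrays were close to each other, with r = 0.996 across all 27631 probe sets, a description of arrays that share a scale. The median difference was -0.014, the quartiles were -0.099 and 0.067, and the SD over probe sets was 0.17. A 2-fold higher value at 24 h was read by 9 probe sets (0.0543%) and a 2-fold lower value by 15 (0.0905%), together 0.145%. At 1.5-fold the counts were 98 higher (0.591%) and 101 lower (0.609%), together 1.2%. The median difference depended on level. It was 0.011 in the lowest of 5 equal bins by mean expression and -0.035 in the highest, with SDs of 0.16 and 0.18. Values by gene rest on the probe set of highest mean for each of 10486 genes with a single symbol. Over these genes the median was -0.014, the SD 0.15, and 54.8% lay below 0.

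The labelled cell type was checked by markers. Of 20 melanocyte and pigmentation genes with a usable probe set 18 passed the filter, among them PMEL and MLANA, while KIT and GPR143 did not. Of keratinocyte markers 3 of 7 passed, of fibroblast markers 3 of 10, of leukocyte markers 3 of 10 and of endothelial markers 2 of 9. The filter itself passed 16579 of all 27631 probe sets. Markers of these other types below the filter included KRT14, COL1A2, PTPRC and PECAM1. Those that passed were KRT10, IVL and SFN for keratinocytes, COL1A1, FAP and LUM for fibroblasts, and CD8A, NKG7 and CD68 for leukocytes. Mean levels at 6 h and 24 h over the markers that passed were 6.98 and 6.88 for melanocyte genes, 4.95 and 4.90 for keratinocyte genes and 5.11 and 5.06 for fibroblast genes. They were 5.24 and 5.31 for leukocyte genes and 6.36 and 6.07 for endothelial genes. In the leukocyte mean at 6 h CD68 read 7.62, while CD8A read 3.95 and NKG7 4.14, close to the filter level. The endothelial pair was KDR, which encodes a VEGF receptor, and the claudin gene CLDN5. KDR read 8.12 and 7.66 (-0.46), above the melanocyte mean at both times, and CLDN5 read 4.60 and 4.48 (-0.11).

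Of the 10486 genes, 10 differed at least 2-fold between the vehicle arrays (0.0954%), 4 higher (0.0381%) and 6 lower (0.0572%). The highest was PTCHD4, a patched-domain membrane protein gene known as a target of p53. It read 4.75 and 6.44 at 6 h and 24 h, a difference of 1.68. PCLO, which encodes the presynaptic scaffold protein piccolo, read 5.64 and 6.90 (1.26). The myosin light chain kinase gene MYLK read 4.51 and 5.65 (1.13). The phospholipase gene DDHD1 read 5.85 and 6.87 (1.02). In each of the 4 the 24 h array was the higher by more than 1 log2 unit.

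The lowest was MAP3K9, a kinase gene upstream of JNK signalling, which read 8.08 and 6.52 at 6 h and 24 h (-1.57). The divergent noncoding transcript ZNRD2-DT read 5.89 and 4.47 (-1.42). TRA2B, a splicing regulator gene, read 8.08 and 6.79 (-1.30). All 6 lower genes stayed above the filter level of 3.96 at 24 h. ANKRD36B read 6.15 and 5.13 (-1.02). PRICKLE1, a gene of planar cell polarity, read 6.38 and 5.36 (-1.02). The immediate early transcription factor gene EGR3 read 8.17 and 7.15 (-1.02).

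**Figure D1:**
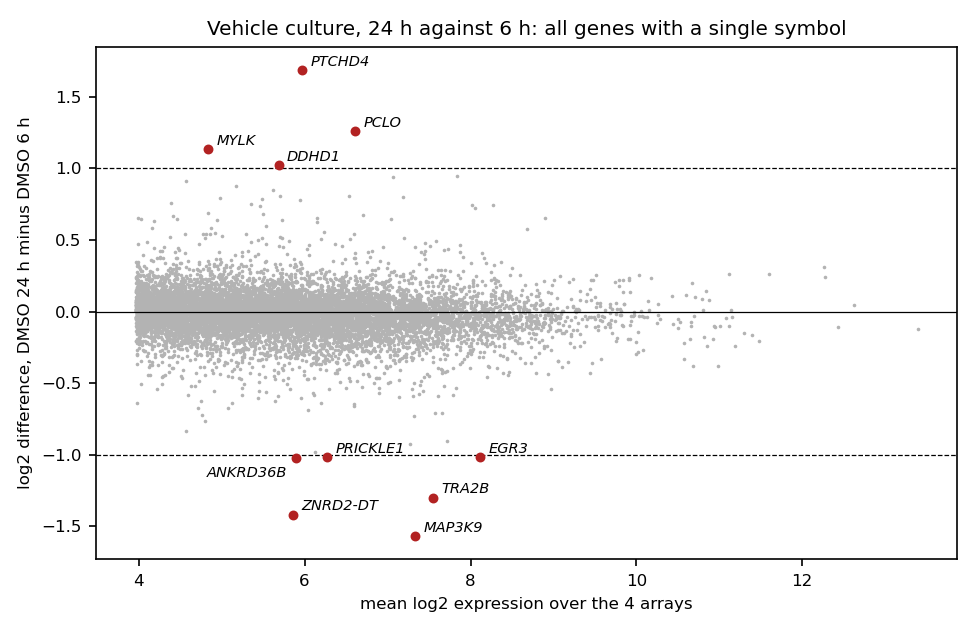
Log2 difference of the vehicle arrays (24 h minus 6 h, vertical axis) against mean log2 expression over the 4 arrays (horizontal axis), each point a gene of the 10486 with a single symbol; dashed lines mark 2-fold. The 10 labelled genes lie outside the lines, from PTCHD4 at 1.68 to MAP3K9 at -1.57.

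The remaining genes among the 20 highest lay between 0.74 and 0.95. HSPA4L, a chaperone gene of the Hsp110 family, read 7.25 and 8.19 at 6 h and 24 h. SLC16A9, a transporter gene of the monocarboxylate family, read 4.61 and 5.48, and SLC43A2, an amino acid transporter gene, read 5.20 and 6.00. The protocadherin gene PCDH18 read 5.76 and 6.57, and the choline transporter-like gene SLC44A2 read 7.65 and 8.39. The other probe set of PCDH18 was at 0.39. The potassium channel gene KCNQ5 read 5.49 and 6.34 (0.85), but its other probe sets past the filter were at 0.0009 and -0.20, and their mean with the first was 0.22. The remaining genes among the 20 lowest lay between -0.98 and -0.65. FKBP7, a prolyl isomerase gene of the endoplasmic reticulum, read 8.08 and 7.17. SETDB2, of the SETDB family of histone methyltransferase genes, read 4.53 and 3.70 (-0.83), with its other probe set at -0.064. The SUMO protease gene SENP5 read 7.70 and 6.97, the replication fork gene MMS22L 7.81 and 7.15 and the ribosome assembly gene RRS1 6.89 and 6.24. Other probe sets were at -0.32 for SENP5 and at -0.22 and -0.14 for MMS22L. These differences were smaller than 2-fold.

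Several probe sets of a gene read different stretches of its transcripts on the same arrays, so they check the measurement and not the culture. All 3 probe sets of MAP3K9 past the filter were lower at 24 h, at -2.16, -1.57 and -0.39. All 3 of PCLO were higher, at 1.26, 1.10 and 0.31. The second probe set was at 0.36 for PTCHD4, at -0.77 for ZNRD2-DT and at -0.35 for TRA2B. These 5 genes had the same direction in each probe set past the filter. DDHD1 had further probe sets at 0.78, 0.77, 0.17 and -0.11. Those of MYLK were at 0.067 and 0.0088, so its 2-fold difference was read by 1 of 3. ANKRD36B, EGR3 and PRICKLE1 had no other past the filter.

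Past 1.5-fold were 67 genes (0.639%), 36 higher (0.343%) and 31 lower (0.296%). Of the 67, 27 had further probe sets, which is 40.3% against 5.77% of all genes. The median of the further probe sets had the direction of the gene in 18 of the 27 and reached 1.5-fold in 4. It did not follow in SOCS7 (0.78, other -0.27), CADPS2 (0.91, other -0.090) and FKBP7 (-0.90, other 0.0088). OXCT2 at -0.98 had another past the filter at -0.026. Across 605 genes with several probe sets, the differences of the first and second correlated at r = 0.30 in the vehicle pair and r = 0.58 in the C646 pair, a description of points that share arrays.

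**Figure D2:**
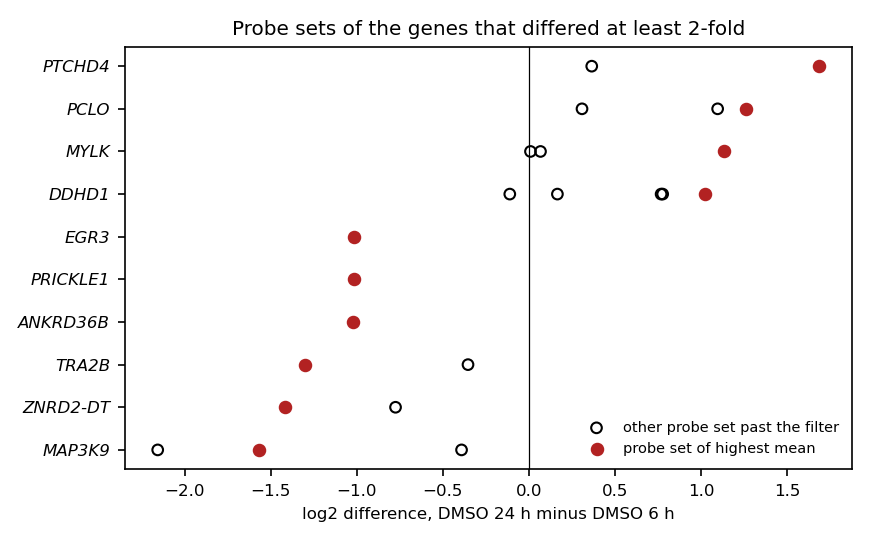
Log2 difference of the vehicle arrays (24 h minus 6 h, horizontal axis) for the probe sets of the 10 genes that differed at least 2-fold (vertical axis). Filled points are the probe set of highest mean and open points the other probe sets past the filter: those of MAP3K9 and PCLO all lie on the side of the filled point, while those of MYLK lie near 0.

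Genes of the dividing cell were slightly lower at 24 h. Of the measured genes of G2 and mitosis 37 of 37 lay below 0, where 54.8% of all genes did, with a median of -0.23 against -0.014 over all genes. None reached 1.5-fold. Cyclin A2 (CCNA2), which drives S phase and mitotic entry, read 9.17 and 8.79 at 6 h and 24 h. The spindle gene ASPM read 7.73 and 7.36, and the hyaluronan receptor gene HMMR read 7.41 and 7.06. The smallest differences were those of NUSAP1, a microtubule-binding protein gene (-0.035), the chromatin protein gene HMGB2 (-0.064) and the mitotic transcription factor gene FOXM1 (-0.064). Fewer dividing cells and less of these RNAs per cell cannot be told apart in RNA from a whole culture. Centred on genes of like level, the median was -0.20 and 36 of 37 lay below 0.

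For DNA replication and S phase the median was -0.14, and 30 of 34 genes lay below 0. The helicase subunit genes MCM6 (7.13 and 6.79 at 6 h and 24 h) and MCM2 (6.49 and 6.17) and the helicase partner gene GINS2 (6.95 and 6.62) were the lowest. SLBP, whose product binds histone mRNA, was the highest at 0.13. Histone genes tied to replication lay below 0 in 23 of 33, at a median of -0.084, and spread more widely. H2AC4 was at -0.46, H4C3 at -0.43 and H3C12 at -0.41, whereas H3C2 read 8.10 and 8.84 (0.74). Histone genes are near-identical copies, so a single one is uncertain. DNA repair genes lay below 0 in 21 of 26, at a median of -0.11, and the lowest were the recombination genes XRCC2 (-0.45), RAD51AP1 (-0.30) and RAD54L (-0.27). G1 regulators were at a median of -0.098, between cyclin D1 (CCND1) at -0.18 and the CDK inhibitor gene CDKN1A at 0.19.

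Mitotic genes are known to share promoter elements: the CCAAT box bound by NF-Y, and TTTGAA, the cell cycle genes homology region bound by the DREAM and MuvB complexes. The 250 bases before the start site, from RefSeq on GRCh38.p14, were searched on both strands. CCAAT was found before 24 of the 30 mitotic genes with a promoter in the table (80.0%) and before 32.9% of all 27305 promoters. TTTGAA was found before 16 of the 30 (53.3%) and before 13.7% of all promoters. Of 30 replication genes 14 held CCAAT and 1 held TTTGAA. A match is a description of letters and not a binding site. The promoters of CCNB2 (cyclin B2), TOP2A (topoisomerase II alpha) and MKI67 (the proliferation marker Ki-67) are printed as examples of those that hold both elements. Capitals mark CCAAT and TTTGAA or their reverse complements, which share 1 base at a place in MKI67. They lie at chr15:59104896-59105145 on the plus strand, chr17:40417897-40418146 on the minus strand and chr10:128126424-128126673 on the minus strand.
CCNB2: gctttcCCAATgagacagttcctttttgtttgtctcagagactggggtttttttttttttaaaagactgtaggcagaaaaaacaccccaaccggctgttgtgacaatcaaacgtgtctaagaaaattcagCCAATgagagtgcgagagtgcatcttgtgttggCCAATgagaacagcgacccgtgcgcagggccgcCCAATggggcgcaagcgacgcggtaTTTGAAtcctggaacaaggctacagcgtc
TOP2A: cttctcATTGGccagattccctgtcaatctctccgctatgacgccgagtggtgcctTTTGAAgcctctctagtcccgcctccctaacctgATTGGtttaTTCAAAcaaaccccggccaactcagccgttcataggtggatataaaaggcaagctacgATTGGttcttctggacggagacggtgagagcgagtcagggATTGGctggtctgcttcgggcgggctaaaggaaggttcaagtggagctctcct
MKI67: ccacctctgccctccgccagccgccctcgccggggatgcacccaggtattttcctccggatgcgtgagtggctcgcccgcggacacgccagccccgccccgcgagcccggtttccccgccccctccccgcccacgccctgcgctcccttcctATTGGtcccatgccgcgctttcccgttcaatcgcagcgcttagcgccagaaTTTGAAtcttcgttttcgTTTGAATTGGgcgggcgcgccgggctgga
In vehicle at 6 h and 24 h, CCNB2 read 8.67 and 8.43, TOP2A 8.80 and 8.50 and MKI67 8.35 and 8.27. All 3 were lower at 24 h, by less than 1.5-fold.

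Targets of p53, the tumour suppressor that arrests damaged cells, lay above 0 in 15 of 22, at a median of 0.097, and none reached 1.5-fold. The death receptor gene EDA2R read 7.11 and 7.55 at 6 h and 24 h, the p53 ubiquitin ligase gene MDM2 7.85 and 8.20 and the repair gene DDB2 6.68 and 6.98. PHLDA3, an AKT inhibitor gene, was lower at 7.23 and 6.78, and the kinase gene PLK2 (-0.13) and cyclin G1 (CCNG1, -0.13) lay below 0 too. PTCHD4, TRIM22 and PURPL were not on this list. TRIM22, known to respond to both p53 and interferon, is on the interferon response list and read 5.27 and 5.93 (0.66). The p53-linked noncoding RNA PURPL read 3.794 and 3.956, both below the filter level of 3.961. It passed the filter through its values under C646, 4.12 and 6.36 at 6 h and 24 h.

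Immediate early genes lay on both sides of 0. Their median was -0.053, 13 of 22 lay below 0, and EGR3 was the only member past 1.5-fold. The AP-1 subunit genes JUN (7.99 and 7.47 at 6 h and 24 h) and FOSB (4.73 and 4.26) were lower at 24 h. The zinc finger factor gene KLF6 read 6.72 and 6.92, the stress factor gene ATF3 was at 0.19 and the mRNA decay gene ZFP36 at 0.18. Feedback and output genes of the MAPK pathway were at a median of -0.024, from the Sprouty gene SPRY4 (-0.39) and PHLDA1 (-0.33) to the phosphatase gene DUSP5 (0.11). Centred on genes of like level the sign of this median turned, to 0.0066. The TGF-beta and ID list had a median of -0.037, or -0.015 centred by level. In it, the differentiation inhibitor gene ID1 read 6.64 and 6.14 and the SMAD corepressor gene SKIL 7.53 and 7.03. Other probe sets of SKIL were at -0.37 and -0.0098. ID3, a relative of ID1, was at 0.14.

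Targets of YAP and TEAD, which respond to cell shape and contact, lay above 0 in 11 of 14. Their median of 0.17 was the highest among lists with at least 4 measured members. The matricellular gene CCN1 read 7.24 and 7.70 at 6 h and 24 h, the LIM protein gene AJUBA 5.54 and 5.85 and the kinase gene LATS2 5.99 and 6.25. ANKRD1 was at -0.13 and the receptor kinase gene AXL at -0.10. Glucose-sensing and starvation-linked genes lay above 0 in 8 of 12, at a median of 0.12. The list joins both kinds of gene, so its median is not the readout of a single condition. ARRDC3, an arrestin-like gene, read 8.28 and 8.93 (0.65) and was the only one of these 12 past 1.5-fold. Cyclin G2 (CCNG2), a FOXO target, read 4.69 and 5.10, and ARRDC4 read 8.06 and 8.44. TXNIP, whose product limits glucose uptake, read 7.76 and 8.04, while FOXO1 was at -0.042 and YPEL2 at -0.055.

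The circadian clock is a loop in which BMAL1 and CLOCK drive the PER and CRY genes through E-boxes, and their products close the loop. The clock list lay above 0 in 9 of 14, at a median of 0.11. RORA, which encodes a nuclear receptor that drives BMAL1, read 5.28 and 6.02 at 6 h and 24 h (0.75). CIART, a repressor of the clock, read 4.32 and 4.86 (0.54), and PER2 read 4.97 and 5.27 (0.30). BMAL1 itself was at -0.16 and the E-box repressor gene BHLHE40 at -0.33. With the filter at the 60th percentile the list median was 0.028. The E-box CACGTG, which is its own reverse complement, was found in the 250 bases before 5 of the 14 genes (35.7%) and before 6.33% of all promoters. In the other lists searched it was before 5 of 30 mitotic (16.7%), 2 of 30 replication (6.67%) and 2 of 11 glucose-sensing genes (18.2%). The promoter of CIART is shown because it holds 3 of them, in capitals. It lies at chr1:150282304-150282553 on the plus strand of GRCh38.p14.
CIART: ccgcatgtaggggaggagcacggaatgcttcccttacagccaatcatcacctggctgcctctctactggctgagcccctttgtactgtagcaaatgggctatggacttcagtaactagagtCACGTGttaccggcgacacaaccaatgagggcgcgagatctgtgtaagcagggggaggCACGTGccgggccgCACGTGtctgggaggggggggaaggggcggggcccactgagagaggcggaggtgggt
PER2, BMAL1 and RORA held no CACGTG in this window.

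**Figure D3:**
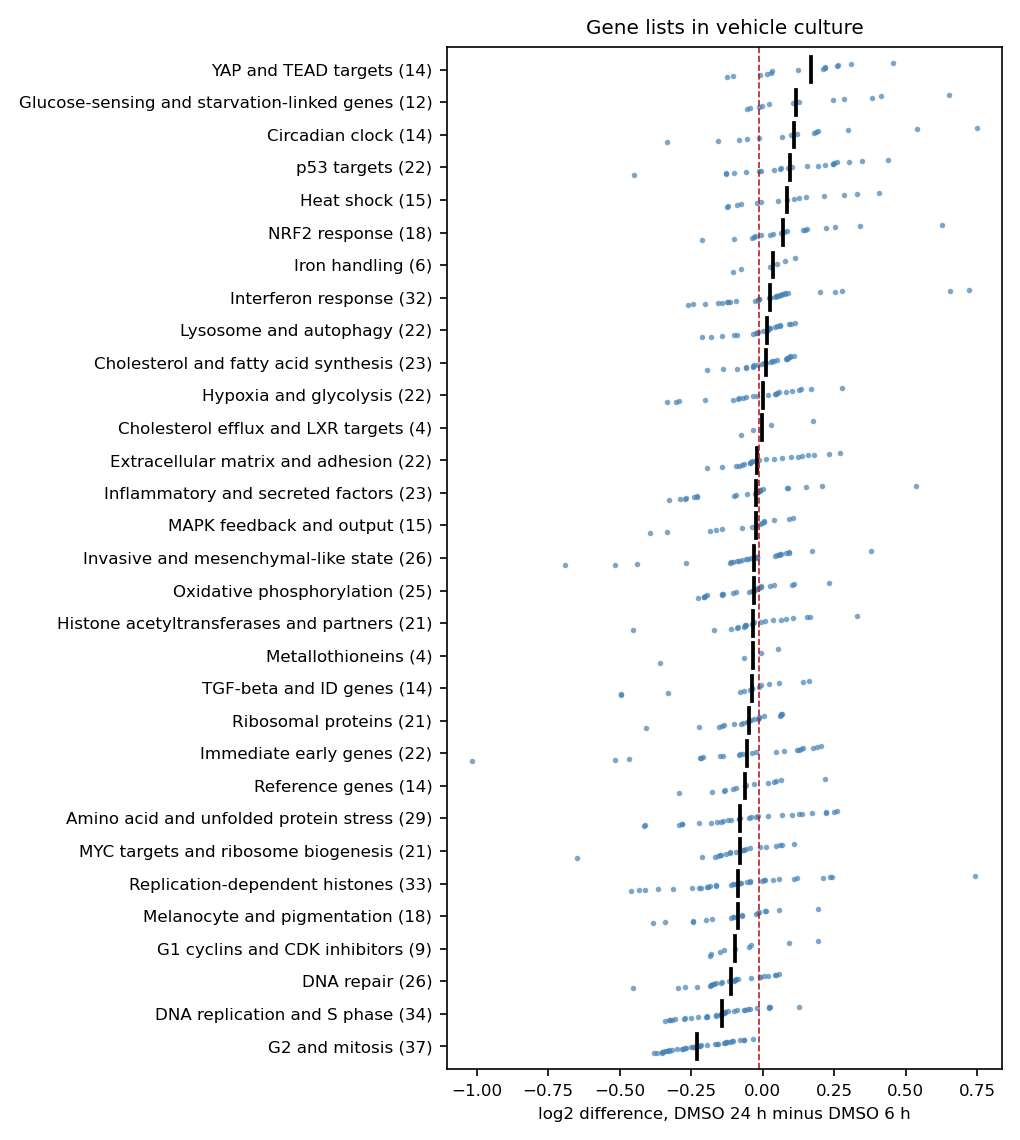
Log2 difference of the vehicle arrays (24 h minus 6 h, horizontal axis) for the members of each gene list with at least 4 measured members (vertical axis, number measured in brackets). Points are genes, black bars the list median and the red dashed line the median over all 10486 genes; medians run from -0.23 for G2 and mitosis to 0.17 for YAP and TEAD targets.

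Stress programmes had small medians. Heat shock genes lay above 0 in 9 of 15, at 0.086: the cochaperone gene DNAJB4 was at 0.41, CHORDC1 at 0.33 and HSPH1 at 0.28, while the mitochondrial chaperonin genes HSPD1 and HSPE1 were at -0.12 and -0.12. The NRF2 list, genes of the oxidative stress response, lay above 0 in 12 of 18 at 0.070. Haem oxygenase 1 (HMOX1), which breaks down haem, read 5.82 and 6.45 (0.63) and was the only NRF2 gene past 1.5-fold. The exporter gene ABCC2 (0.34) and SRXN1 (0.25) followed. The amino acid and unfolded protein list lay below 0 in 19 of 29 at -0.078. The stress factor gene DDIT3 read 5.81 and 5.39 and the endoplasmic reticulum gene SDF2L1 5.25 and 4.84, whereas SESN2 (0.26), the serine synthesis gene PSAT1 (0.25) and the glutamine transporter gene SLC38A2 (0.22) lay above 0. Hypoxia and glycolysis genes were evenly split, 11 of 22 above 0, from PFKFB4 (-0.33), PDK1 (-0.30) and the glucose transporter gene SLC2A1 (-0.29) to NDRG1 (0.28). Metallothioneins and their partner gene were at -0.035, with MT1X at -0.36.

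Melanocyte and pigmentation genes lay below 0 in 14 of 18, at a median of -0.086. S100B, a calcium-binding melanoma marker, read 8.77 and 8.39 at 6 h and 24 h. MITF, the central factor of pigment cells, read 6.81 and 6.47. The receptor gene ERBB3 read 7.80 and 7.55, while PAX3, a factor upstream of MITF, read 6.78 and 6.97. The invasive and mesenchymal-like list was at -0.030. SNAI1, which encodes a repressor of E-cadherin, read 6.47 and 5.77 (-0.69) and was its only member past 1.5-fold. The collagenase gene MMP1 was at -0.44 and TWIST2 at 0.38. Matrix and adhesion genes were at -0.020, between the integrin gene ITGB3 at -0.19 and the proteoglycan gene LUM at 0.27. Centred by level, this median turned to 0.0065 and that of the invasive list was -0.0042.

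Among acetyltransferases and partners, CREBBP, which encodes CBP, read 6.64 and 6.75 in vehicle (0.11). EP300 had no probe set of its own among those used here. The list was at -0.033, or at -0.0014 centred by level. Its ends were genes whose products bind p300 and CBP: CITED1 read 5.67 and 5.22 (-0.45) and CITED2 read 5.26 and 5.59 (0.33).

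Secretory and immune lists had medians near 0. Inflammatory and secreted factors lay below 0 in 17 of 23 at -0.024. Centred on genes of like level, 14 of the 23 lay below 0 at a median of -0.0099. The chemokine gene CXCL8 read 9.19 and 8.92, the glycoprotein hormone gene STC1 5.35 and 5.02 and the hyaluronan-binding protein gene TNFAIP6 5.71 and 6.25. Interferon response genes lay above 0 in 18 of 32 at 0.026. The 2 members past 1.5-fold were USP18 (0.72) and TRIM22 (0.66), both higher at 24 h. USP18, the ISG15 protease gene, read 7.56 and 8.29, and its other probe sets were at 0.18 and -0.076. The RNA sensor gene RIGI was at 0.28 and SAMD9 at -0.26.

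Reference genes show the size of shift in genes used for normalization: their median was -0.060, from TBP at -0.29 to POLR2A at 0.22. Ribosomal proteins were at -0.047 (16 of 21 below 0), ribosome biogenesis and MYC targets at -0.079 (16 of 21) and oxidative phosphorylation at -0.031 (20 of 25). Centred on genes of like level, 13 of 25 oxidative phosphorylation genes lay below 0 at a median of -0.0043, and 13 of 21 ribosomal proteins at -0.018. RRS1 was the only member of these 4 lists past 1.5-fold. Lysosome and autophagy genes were at 0.015, cholesterol and fatty acid synthesis at 0.011, cholesterol efflux at -0.0016 (0.0021 centred by level) and iron handling at 0.037. The iron-uptake receptor gene TFRC was at -0.10, the cholesterol pathway gene FDPS at -0.19 and the lipid exporter gene ABCA1 at 0.18.

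**Figure D4:**
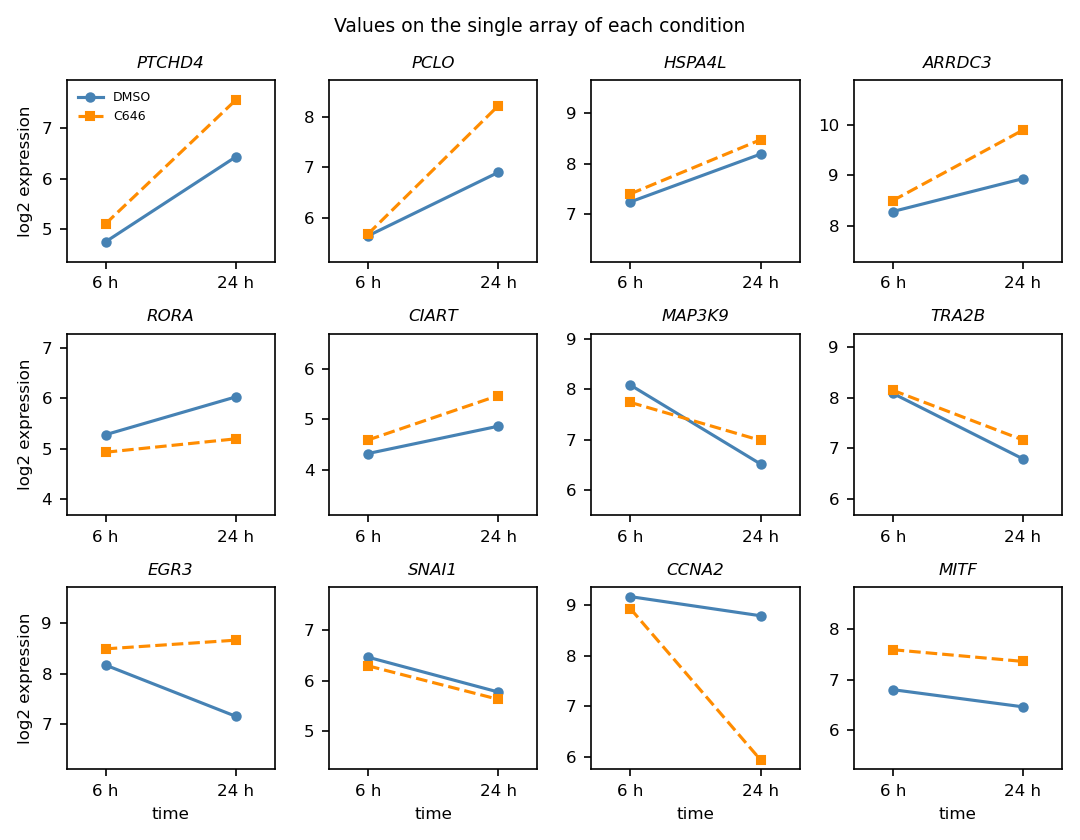
Log2 expression (vertical axes, each spanning the same number of log2 units) at 6 h and 24 h (horizontal axes) for 12 genes, with circles for the DMSO arrays and squares for the C646 arrays, 1 array each. PTCHD4, PCLO, HSPA4L and ARRDC3 are higher at 24 h in both treatments, MAP3K9, TRA2B and SNAI1 are lower in both, and EGR3 is lower in DMSO and not under C646.

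The C646 arrays measured the same interval in other cultures and share no array with the vehicle pair, although all 4 have a common scale. There, 543 probe sets differed at least 2-fold (3.28%) against 24 in vehicle. Across 10486 genes the vehicle and C646 differences correlated at r = 0.35, a description, and 60.6% of genes had the same sign. Of the 67 genes past 1.5-fold in vehicle 48 (71.6%) had the same sign under C646. Of the 938 past 1.5-fold under C646 (8.95%) 766 (81.7%) had the same sign in vehicle. Both were past 1.5-fold for 32 genes, 47.8% of the first list and 3.41% of the second, 26 of them in the same direction. Over probe sets rather than genes, 60.3% of the 199 past 1.5-fold in vehicle had the same sign under C646, beside 59.3% of all probe sets.

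Genes with large differences in the same direction were PTCHD4 (1.68 and 2.45 in vehicle and under C646), PCLO (1.26 and 2.54), HSPA4L (0.95 and 1.07), SLC16A9 (0.87 and 1.07) and PCDH18 (0.81 and 1.60) on the higher side. On the lower side they were TRA2B (-1.30 and -0.99), the zinc finger gene ZMYM1 (-0.93 and -0.99), FKBP7 (-0.90 and -0.96), MAP3K9 (-1.57 and -0.75) and the glutamate receptor gene GRIN1 (-0.72 and -0.87). The other probe set of GRIN1 had the opposite sign in vehicle (0.063 and -0.15), that of ZMYM1 was at -0.087 and -0.30, and that of FKBP7 at 0.0088 and -0.29. Averaged over probe sets, the vehicle differences were -0.33 for GRIN1, -0.51 for ZMYM1 and -0.45 for FKBP7. List medians were far apart in some lists and close in others. The mitotic median was -0.23 in vehicle and -1.92 under C646, where 34 of 37 genes were at least 2-fold lower against 2.69% of all genes. Replication was at -0.14 and -1.63, p53 targets at 0.097 and 0.97, glucose-sensing genes at 0.12 and 0.68, and immediate early genes at -0.053 and 0.33. Heat shock was at 0.086 and 0.057, NRF2 response at 0.070 and 0.026, lysosome at 0.015 and 0.053, and melanocyte genes at -0.086 and -0.038. The difference between the pairs was not tested.

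**Figure D5:**
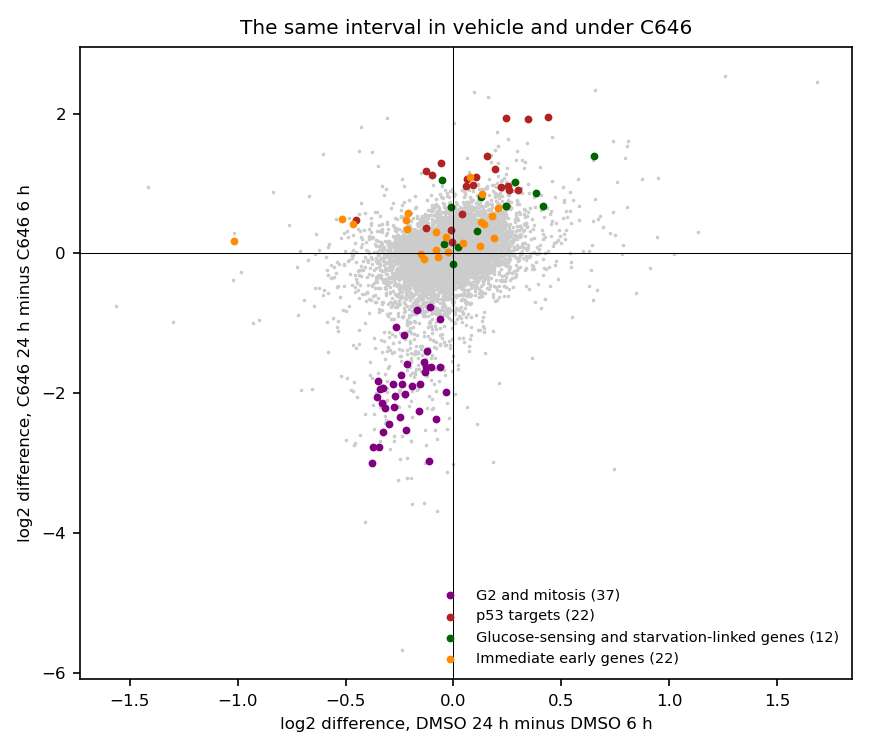
Log2 difference 24 h minus 6 h in DMSO (horizontal axis) against the same difference under C646 (vertical axis, wider scale) for 10486 genes in grey and 4 lists in colour. The 37 mitotic genes lie left of 0, at medians of -0.23 in DMSO and -1.92 under C646.

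Genes with the widest gap between the pairs mostly differed by less than 1.5-fold in vehicle, where the SD over genes was 0.15. FAM111B, a protease gene, read 9.45 and 9.21 at 6 h and 24 h in vehicle and 9.47 and 3.80 under C646. The difference was lower under C646 for the histone genes H3C12 (-0.41 and -3.84), H3C2 (0.74 and -3.07) and H2BC3 (-0.076 and -3.68). It was lower there for cyclin E2 (CCNE2, -0.14 and -3.57) too. The difference was higher under C646 for ZNRD2-DT (-1.42 and 0.95), PRSS35 (-0.31 and 1.94) and REP15 (-0.43 and 1.81). It was higher there for the sulfatase gene SULF2 (0.096 and 2.31) and PURPL (0.16 and 2.23) too. Of these 10 genes, H3C2 and ZNRD2-DT were past 1.5-fold in vehicle. PURPL was below the filter level on both vehicle arrays. In vehicle PRSS35 read 4.04 at 6 h and 3.74 at 24 h, the first above and the second below that level. Under C646 it read 4.31 and 6.25.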

How the data were processed

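The authors deposited log2 values, 1 per gene-level probe set and array, for 27631 probe sets on 4 arrays, each array a condition of its own. The scale was read from the values (2.48 to 13.6). How the authors summarised and normalised them is not stated in the sources at hand, and the submitters' processing notes name hg19. Array medians were 4.39 to 4.41, and no further scaling was applied. The number of arrays limits the precision.

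Symbols came from the platform annotation, updated by Entrez identifier through RefSeq GRCh38.p14 (20362 of 20429 single-symbol probe sets). Probe sets numbered among those of another chromosome than their gene's (1340 of 19794 placed, 6.77%) stood for no gene. Small RNAs and LOC symbols stood for none either.

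Named were the 20 highest and 20 lowest genes, those past 2-fold, of each of 35 lists the 3 highest, 3 lowest and those past 1.5-fold, the 5 at each end by likeness and by unlikeness to the C646 pair, and CREBBP. TXNIP, CCNB2, TOP2A, MKI67, PMEL and MLANA fall outside this rule and were chosen after their values were seen. Members and lists were chosen with earlier results of these data known. Differences were computed with Python 3.11.15 and pandas 2.3.3, in a script tested on simulated data. Alternatives were the filter, scaling, fold threshold and choice of probe set.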

Additional observations from a re-analysis of the deposited data

Results flagged for a closer look

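These 4 named genes are among the 6 genes that differed at least 1.5-fold in opposite directions between 6 h and 24 h in the vehicle and the C646 arrays. The difference between the treatments was not tested, because each direction rests on 1 array at each time. ZNRD2-DT was at -1.42 and 0.95 in vehicle and under C646, and its other probe set at -0.77 and 1.20. The histone gene H3C2 was at 0.74 and -3.07. SETDB2 was at -0.83 and 0.88, with another probe set at -0.064 and 0.14. The pseudogene PI4KAP2 was at -0.67 and 0.82, with another probe set past the filter at -0.078 and 0.046.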

How the results depend on the processing

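The counts of 9 probe sets higher and 15 lower at 2-fold lay between 6 and 10 and between 12 and 16 without the filter, with the filter at the 60th percentile, with quantile normalization, with median centring and with differences centred by level, the last chosen after seeing the data. At 1.5-fold they were 98 and 101. With quantile normalization the medians were -0.18 for mitosis, -0.10 for replication and 0.13 for p53 targets. Without the filter the endothelial median changed sign, from -0.29 to 0.024. When a gene's probe sets were averaged, 23 of 233 named genes shifted by more than 0.17, the SD over probe sets, among them MYLK to 0.40, KCNQ5 to 0.22, DDHD1 to 0.52 and MAP3K9 to -1.37, and none reversed. With probe sets of another chromosome kept, RPL14 went from -0.22 to -0.026. CYCS went from -0.23 to 0.12, a change of sign. No paired analysis was possible because each condition has 1 array, and for the same reason no array could be left out.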

Other observations

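Of the 24 probe sets past 2-fold in vehicle, 6 carry several gene symbols and 1 carries none, and they are not named. A probe set annotated FYN but numbered among those of another chromosome read 5.45 and 7.36 at 6 h and 24 h in vehicle (1.91) and 5.77 and 6.73 under C646. One annotated EIF4B, numbered likewise, read 6.85 and 5.52 (-1.32) and 7.06 and 6.06. These values are not given as values of those genes. Probe sets that are not the brightest of their gene include one of the G protein-coupled receptor kinase gene GRK5 (5.55 and 4.24, -1.31). Another is one of PRKAA2, which encodes a catalytic subunit of AMPK (6.86 and 5.82, -1.05). The brightest probe sets of these genes were at -0.25 and 0.29. The pseudogene LOC729080 read 7.28 and 5.93 (-1.35). These genes were chosen after their values were seen.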
